A study of Mus musculus with 12 samples.

Results

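The deubiquitinating enzymes are 77 of the 27179 genes counted in cultured mouse hippocampal neurons. They were chosen by name, as protein-coding genes whose symbol begins with *Usp* and a digit, is *Uchl1* to *Uchl5*, begins with *Otub* or *Otud*, or is *Josd1*, *Josd2*, *Atxn3*, *Bap1*, *Cyld*, *Stambp* or *Stambpl1*. The rule uses names and gene type alone. By protein fold, 56 belong to the USP family (with *Cyld*), 10 to the OTU family, 5 to the UCH family (with *Bap1*), 3 to the Josephin family (with *Atxn3*) and 2 to the JAMM metalloproteases. The last, *Usp6nl*, matched by its symbol but encodes a TBC domain protein and no ubiquitin protease.

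Ubiquitin is a small protein that is attached to other proteins, often as chains, and that can mark them for the proteasome. Deubiquitinating enzymes cut it off again: they trim chains at the proteasome so that ubiquitin is recycled, they rescue substrates, and they edit the ubiquitin on histones, endosomal receptors, mitochondria and signalling complexes. In neurons, *Uchl1* is known as one of the most abundant proteins, and *Usp14*, *Usp9x* and *Usp46* are known for roles at synapses.

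The neurons came from hippocampi of newborn pups, C57BL/6 by the labels (the methods also name FVB), and were kept for 17 to 18 days on Transwell inserts, porous membranes through which neurites grow while somas stay on top. They received MG132, a proteasome inhibitor, at 10 μM for 7 h, or its solvent DMSO (Ctrl), and RNA of somas and of neurites was sequenced separately. This gave 3 libraries each of Ctrl somas, MG132 somas, Ctrl neurites and MG132 neurites, all without any transgene or deletion according to the labels. Neither the labels nor the methods say whether libraries of a group came from separate pups or cultures, so the p-values measure only the spread between these libraries, which may be technical.

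Libraries held 4247610 (MG132 somas 2) to 22166347 (MG132 neurites 2) counted reads. Levels are given as CPM, the usual unit of read counts relative to library size, here after scaling with TMM factors, which ranged from 0.567 to 1.44. A member was called higher or lower when edgeR's quasi-likelihood test gave a Benjamini-Hochberg adjusted p under 0.01 over all 14185 genes tested and the change exceeded 1.7-fold. Of the 77 members, 67 passed the filter on low counts. The 10 others (*Otud6a*, *Usp17la* to *Usp17le*, *Usp26*, *Usp44*, *Usp50* and *Usp9y*) stayed at or below 1.02 CPM in every library and were not tested. Markers of other cells than neurons were also detected. The summed CPM of 8 neuron markers, from 856 to 1758 in a library, was below that of 7 astrocyte markers in each group of libraries (2435 to 5673 in somas, 9628 to 25720 in neurites), and 6 oligodendrocyte markers summed to between 517 and 23100. Each of the 8 neuron markers was detected in every library. In these lysates, fewer cells of a type and less RNA per cell cannot be told apart.

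MG132 raised mRNAs of deubiquitinating enzymes in both fractions. In somas, 12 of the 67 tested members were called higher and 1 lower, beside 9.00% and 5.58% of all genes. In neurites, 21 were called higher and 1 lower, beside 9.25% and 5.44%. The 77 members together summed to 2432 to 2505 CPM in the Ctrl somas libraries and 3584 to 3833 CPM in MG132 somas, and to 2560 to 2800 CPM in Ctrl neurites and 4203 to 4413 CPM in MG132 neurites, without overlap of Ctrl and MG132. The median log2 fold change of the tested members was 0.54 in somas, where that of all genes was -0.070, and 0.46 in neurites, where that of all genes was -0.16. Without TMM factors (scaling by total counts), 3 members were called higher in somas and 6 in neurites, beside 3.47% and 3.40% of all genes, and none lower, beside 2.94% and 3.79%. In somas, 3 of 67 is a share close to that of all genes. Both member medians stayed positive with DESeq2 size factors (0.48 and 0.43) and on total counts (0.51 and 0.31).

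By family, the members called higher were mostly USP enzymes, which are also most of the list. In the USP family, 10 of 47 tested members were called higher in somas and 18 of 47 in neurites, beside 9.00% and 9.25% of all genes. The UCH family had 1 of 5 in somas (*Bap1*) and 2 of 5 in neurites (*Bap1* and *Uchl5*), and the OTU family 1 of 9 in each fraction (*Otud4*). For the OTU family this share, 11.11%, is close to that of all genes. None of the 3 Josephin and 2 JAMM members was called in this edgeR fit, which has no block for the replicate number. At an unadjusted p under 0.05, 2 Josephin members were higher in somas and 1 in neurites, and 1 JAMM member was higher in neurites. Of all 14185 genes tested, 2893 in somas and 2706 in neurites were higher at this level.

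**Figure D1:**
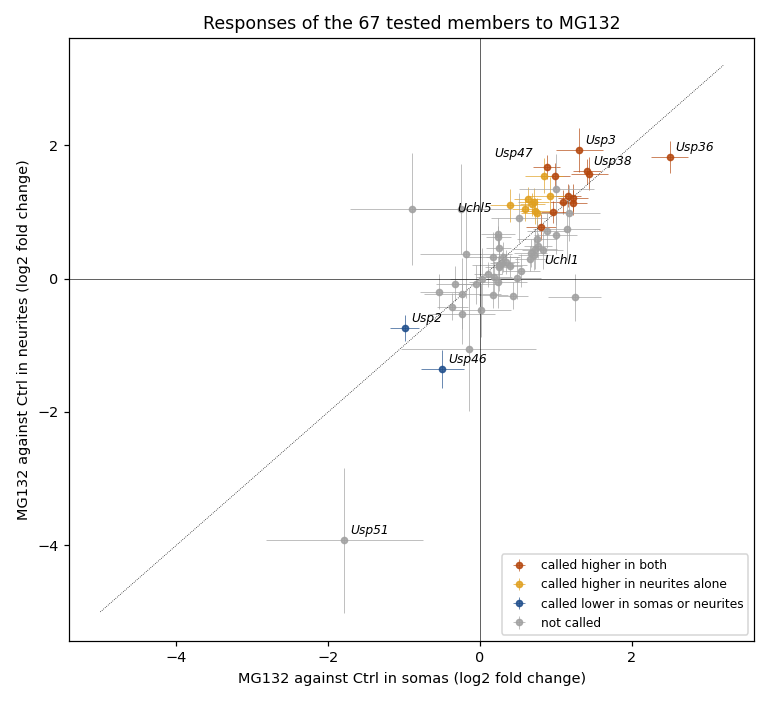
Log2 fold change of each of the 67 tested members after MG132 in somas (horizontal axis) and in neurites (vertical axis), with standard errors as bars and the line of equal change dotted. The 12 members called higher in both fractions (dark orange) and the 9 called higher in neurites alone (yellow) lie in the upper right, *Usp36* is farthest right at 2.50, and *Usp2* and *Usp46* (blue) are lower.

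Of the 2 cysteine proteases that bind the proteasome itself, *Usp14* trims chains on the regulatory particle and *Uchl5* docks there through Adrm1. *Usp14* (Entrez 59025) measured 68.85, 57.0 and 81.9 CPM in the 3 Ctrl somas libraries and 110.2, 166 and 138 CPM in MG132 somas. In neurites it measured 49.95, 55.7 and 44.0 CPM in Ctrl and 151, 153 and 131 CPM in MG132. The groups did not overlap in either fraction, and *Usp14* rose with log2 changes of 0.99 ± 0.19 (± standard error of the fit, edgeR adjusted p = 0.00143) in somas and 1.54 ± 0.19 (edgeR adjusted p = 4.9e-05) in neurites. Of its exonic bases, 26.0% are shared with *Thoc1* on the opposite strand, so reads there may belong to that gene or be left uncounted.

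*Uchl5* (Entrez 56207, chromosome 1, 143777234 to 143807466 in GRCm38) measured 14.6, 10.6 and 19.1 CPM in Ctrl somas and 20.5, 13.3 and 23.6 CPM in MG132 somas, 2 ranges that overlap. In neurites it measured 29.9, 23.9 and 29.4 CPM in Ctrl and 60.2, 55.2 and 62.6 CPM in MG132, without overlap. Its log2 fold change was 1.10 ± 0.25 in neurites (edgeR adjusted p = 0.00473), where it was called, and 0.39 ± 0.25 in somas (edgeR adjusted p = 0.279), where it was not. The difference between the 2 responses, 0.71 (standard error 0.36, edgeR adjusted p = 0.738), did not pass the test. The call in neurites was lost without either of the Ctrl or MG132 neurites libraries 1 or 2, with values between 1.003 and 1.27 over the fits that left out 1 library.

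The most raised member in somas was *Usp36*, a protease of the nucleolus. *Usp36* (Entrez 72344, chromosome 11, 118259651 to 118290260) measured 13.25, 12.85 and 7.71 CPM in Ctrl somas and 71.1, 56.45 and 63.6 CPM in MG132 somas. In neurites the values were 12.7, 9.94 and 9.91 CPM in Ctrl and 38.5, 42.9 and 32.8 CPM in MG132. Every MG132 library lay well above every Ctrl library, a 5.64-fold rise in somas (log2 2.50 ± 0.24, edgeR adjusted p = 7.9e-06) and a 3.54-fold rise in neurites (log2 1.82 ± 0.24, edgeR adjusted p = 7.75e-05). The difference of the neurites value from that in somas did not pass the test (-0.67, standard error 0.33, edgeR adjusted p = 0.729).

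The promoter of *Usp36* is shown because it belongs to the member with the largest rise in somas. The 200 bases from 250 to 51 bases before its RefSeq start, chr11:118290295-118290494 of GRCm38.p6 on the minus strand, hold 1 match to TGACNNNGC, the core of the antioxidant response element, on the other strand, in capitals and 221 to 213 bases before the start.

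Usp36: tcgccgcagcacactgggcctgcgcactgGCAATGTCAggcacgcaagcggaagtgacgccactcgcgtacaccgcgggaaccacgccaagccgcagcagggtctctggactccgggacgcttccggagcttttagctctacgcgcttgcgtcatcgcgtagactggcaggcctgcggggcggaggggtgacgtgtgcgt

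In neurites the largest rise was that of *Usp3*, a histone H2A and H2B protease. *Usp3* (Entrez 235441) measured 5.81, 8.38 and 9.24 CPM in Ctrl neurites and 37.6, 26.8 and 26.4 CPM in MG132 neurites, 3.81-fold higher (log2 1.93 ± 0.33, edgeR adjusted p = 0.000543). In somas it rose from 9.87, 6.65 and 16.5 CPM to 22.45, 29.3 and 29.9 CPM, 2.47-fold higher (log2 1.31 ± 0.31, edgeR adjusted p = 0.00646). The groups did not overlap in either fraction, but Ctrl somas 3 stood above the other Ctrl somas libraries. The call in somas was lost without Ctrl somas 1 or 2 or MG132 somas 2 or 3, with values between 1.05 and 1.71.

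*Usp47* was the member with the largest difference in favour of neurites among those called. It encodes a protease known from base excision repair. *Usp47* (Entrez 74996, chromosome 7, 112023476 to 112111386) measured 79.3, 103.9 and 82.65 CPM in Ctrl somas and 156, 158 and 173 CPM in MG132 somas. In neurites it measured 99.6, 84.8 and 128 CPM in Ctrl and 335, 329.5 and 337 CPM in MG132, so that the 3 MG132 neurites libraries were closely alike and far above all others. The log2 fold change was 0.87 ± 0.18 in somas (edgeR adjusted p = 0.00206) and 1.68 ± 0.18 in neurites (edgeR adjusted p = 1.38e-05). The difference was 0.81 (standard error 0.25), larger in neurites in 3 of 3 same-numbered sets, with an unadjusted p of 0.00529 and an adjusted p of 0.468 from edgeR. Without Ctrl somas 1 or 3 the call in somas was lost.

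**Figure D2:**
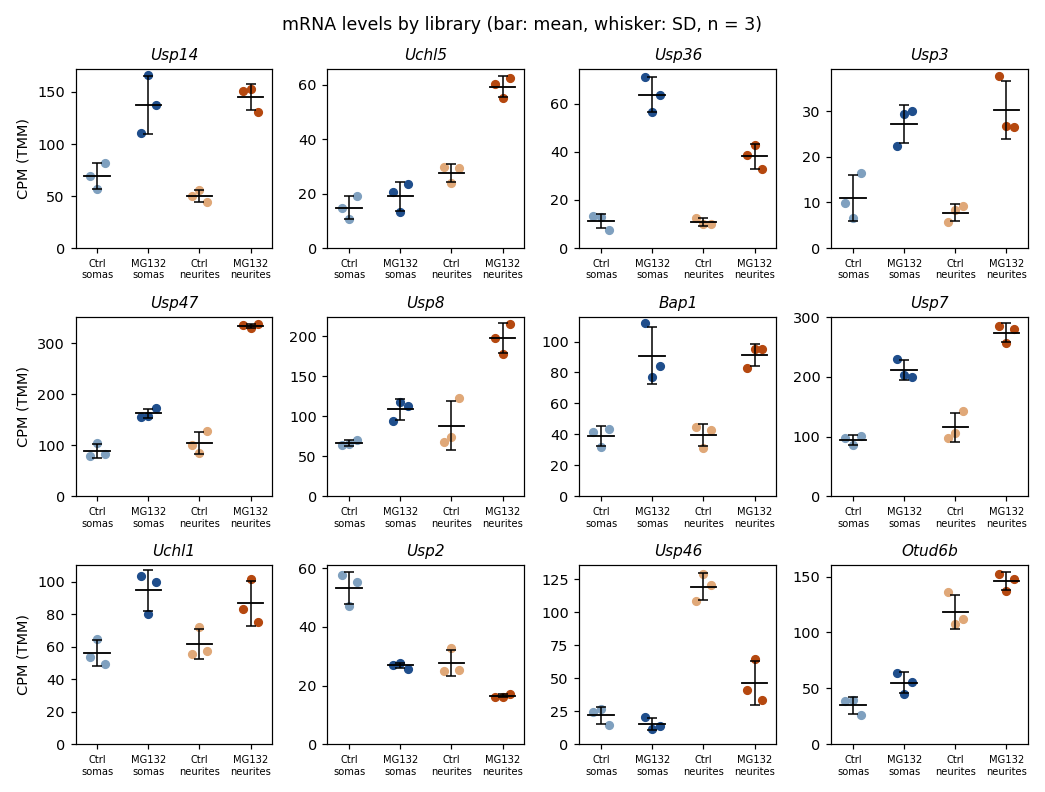
CPM (vertical axes, from 0) of 12 members in each of the 12 libraries, with the mean as a line and the SD as a whisker for the 3 libraries of each group. In the upper and middle rows the MG132 neurites lie above the Ctrl neurites without overlap, *Usp2* and *Usp46* lie lower in MG132 neurites than in Ctrl neurites, and *Otud6b* and *Usp46* are higher in Ctrl neurites than in Ctrl somas.

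Of 4 enzymes picked here for known roles in the nucleus and on histones, 3 were called higher in each fraction. Of all genes, 9.00% were called higher in somas and 9.25% in neurites. The 4 were picked with earlier results of these data known and are not all members with such roles, as *Usp3* above shows. Their count is therefore no share of nuclear members. *Usp7*, which deubiquitinates p53 and Mdm2, rose from 85.5 to 101 CPM in Ctrl somas to 199 to 231 CPM in MG132 somas, and from 98.05 to 143 CPM in Ctrl neurites to 274 ± 15.7 CPM (mean ± SD, n = 3) in MG132 neurites. Its log2 fold change was 1.16 (standard error 0.17) and 1.25 (standard error 0.17). *Bap1*, which removes ubiquitin from histone H2A, measured 41.3, 31.8 and 43.5 CPM in Ctrl somas and 111.7, 76.85 and 83.9 CPM in MG132 somas. Its values in neurites were nearly the same, 44.7, 31.2 and 42.5 CPM in Ctrl and 82.95, 94.97 and 95.2 CPM in MG132, and so were its log2 fold changes (1.22, standard error 0.20, and 1.21, standard error 0.20). *Usp16*, another H2A protease, rose by 1.44 (standard error 0.24) in somas and 1.57 (standard error 0.24) in neurites. *Usp22*, the deubiquitinase of the SAGA coactivator, was not called (0.39, edgeR adjusted p = 0.0951, and 0.19, edgeR adjusted p = 0.422).

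The other members called higher in both fractions were *Usp38*, *Usp31*, *Otud4*, *Usp19* and *Usp45*. *Usp38* rose by 1.41 in somas and 1.61 in neurites, *Usp31* by 1.22 and 1.14, *Otud4* by 1.09 and 1.15, and *Usp19*, which has a form anchored in the endoplasmic reticulum, by 0.96 and 1.0 on the log2 scale. For these 4 the MG132 and Ctrl libraries did not overlap in either fraction, and leaving out any 1 library kept the call. In *Usp38*, 20.5% of exonic bases overlap *Gm9725* on the opposite strand. *Usp45* was at the edge of the threshold, with 0.80 in somas (edgeR adjusted p = 0.00685) and 0.78 in neurites (edgeR adjusted p = 0.00925), and lost its call in 5 of 6 and 6 of 6 left-out fits.

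Beside these, 9 members were called higher in neurites alone: *Uchl5*, *Usp1*, *Usp8*, *Usp10*, *Usp15*, *Usp33*, *Usp34*, *Usp37* and *Usp39*. The somas values of all 9 were positive as well, for 8 of them with an edgeR adjusted p under 0.05. *Usp33* missed the call in somas only by the fold, with 0.69 (edgeR adjusted p = 0.00719). None of the differences between fractions passed the test, with edgeR adjusted p between 0.681 and 0.941. Of the neurites calls, 57.1% were also made in somas, and 100% of the somas calls were made in neurites. Across the 67 tested members, which share libraries and depth within each fraction, the 2 responses had a Pearson correlation of 0.763, given as a description.

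Among these, *Usp8*, which acts on receptors at endosomes, measured 67.1, 74.5 and 123 CPM in Ctrl neurites and 198, 178 and 215.5 CPM in MG132 neurites. It rose by 1.16 on the log2 scale (standard error 0.21, edgeR adjusted p = 0.000885), against 0.70 in somas (standard error 0.21, edgeR adjusted p = 0.0202). *Usp37*, known from the cell cycle, had the largest value of the 9, with 6.87, 13.4 and 9.91 CPM in Ctrl neurites and 31.7, 27.0 and 31.2 CPM in MG132 neurites (log2 1.54, standard error 0.26, edgeR adjusted p = 0.000582). *Usp1*, which acts on PCNA and FANCD2, rose by 1.01, *Usp10* by 0.99, *Usp15* by 1.19, *Usp33* by 1.12, *Usp34*, a protease of the Wnt pathway, by 1.04, and *Usp39*, a splicing factor thought to lack protease activity, by 1.25 in neurites. Reads of *Usp33* and *Usp34* are uncertain in part, since 24.4% and 11.6% of their exonic bases overlap genes on the opposite strand. Leaving out 1 library ended the neurites call of *Usp10* (Ctrl neurites 1 or MG132 neurites 2) and of *Usp39* (Ctrl neurites 1 or 2 or MG132 neurites 2), with values of 0.87 to 1.17 and 1.05 to 1.42.

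With a block for the replicate number, 19 members in place of 12 were called higher in somas, while the count in neurites stayed at 21. The shares of all genes called higher were larger with the block as well, 11.7% in somas and 11.8% in neurites, and those called lower were 9.76% and 9.75%, with 1 member lower in each fraction. The 7 added calls were *Atxn3* (log2 0.95, edgeR adjusted p = 0.00205 with the block), *Uchl1* (0.78, edgeR adjusted p = 0.000665), *Usp10* (0.78, edgeR adjusted p = 0.00464), *Usp37* (0.84, edgeR adjusted p = 0.00726), *Usp39* (0.94, edgeR adjusted p = 0.00409), *Usp42* and *Usp49*. Of these, *Usp10*, *Usp37* and *Usp39* are among the 9 called in neurites alone without the block.

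*Uchl1*, the abundant neuronal hydrolase, stood just below the fold threshold without the block. It measured 53.7, 64.9 and 49.4 CPM in Ctrl somas and 103.7, 80.2 and 99.9 CPM in MG132 somas, without overlap, a 1.69-fold difference (log2 0.76 ± 0.19, edgeR adjusted p = 0.00745). The neurites libraries measured 55.2, 72.3 and 57.1 CPM in Ctrl and 82.95, 101.8 and 75.2 CPM in MG132 (log2 0.49, standard error 0.19, edgeR adjusted p = 0.0631). Of its exonic bases, 18.1% overlap *Uchl1os* on the opposite strand. Per kb of exons, *Uchl1* had the highest level of all members in each of the 4 groups.

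Of the promoters of 62 members in the RefSeq table, that of *Uchl1* was the one with a heat shock element of 3 units, the motif bound by heat shock factors, and it is shown for this reason. The motif searched was GAANNTTC followed by any 2 bases and GAA, on both strands of 250 bases before the start. Of 69 promoters of members (some have several starts), 1 held it, or 1.45%, and of all 32851 promoters 0.466% did. The match, in capitals, lies 167 to 155 bases before the start of *Uchl1* in chr5:66675871-66676120 of GRCm38.p6, plus strand, and reads as the motif on the other strand.

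Uchl1: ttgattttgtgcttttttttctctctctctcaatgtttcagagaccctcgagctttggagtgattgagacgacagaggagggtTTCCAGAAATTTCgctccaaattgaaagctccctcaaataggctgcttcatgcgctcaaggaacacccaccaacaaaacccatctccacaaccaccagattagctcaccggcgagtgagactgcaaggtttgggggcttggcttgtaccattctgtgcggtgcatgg

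Of the 21 members called higher in a fraction, 17 had a promoter in the table, and none of the 17 held the heat shock element. The antioxidant core TGACNNNGC, searched on both strands like the others, was in 4 of the 17 (*Bap1*, *Uchl5*, *Usp34* and *Usp36*) and in 7 of the 37 other tested members with a promoter, while 10.2% of all promoters held it. The NRF1 site was in 3 of the 17 (*Usp15*, *Usp37* and *Usp38*) and in 1 of the 37, with 3.74% of all promoters. The CCAAT box was in 2 of the 17 and 12 of the 37, with 33.9% of all. These matches are descriptions of letters in a window.

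After MG132, 1 member was called lower in each fraction. *Usp2* (Entrez 53376, chromosome 9, 44067021 to 44095627), a protease with a circadian rhythm, measured 57.7, 47.2 and 55.2 CPM in Ctrl somas and 27.1, 27.7 and 25.8 CPM in MG132 somas, and 24.8, 32.7 and 25.4 CPM in Ctrl neurites against 16.2, 16.3 and 17.2 CPM in MG132 neurites. MG132 libraries were lower than Ctrl libraries without overlap in both fractions. The log2 fold change was -0.99 ± 0.19 in somas (edgeR adjusted p = 0.00135) and -0.74 ± 0.19 for neurites, where the edgeR adjusted p of 0.0101 just missed the threshold. Without Ctrl somas 1 the somas call was lost.

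*Usp46* (Entrez 69727, chromosome 5, 73998726 to 74068411), which with its partner Wdr48 acts on AMPA receptors, was the member called lower in neurites. It measured 109, 129 and 121 CPM in Ctrl neurites and 41.0, 64.9 and 33.3 CPM in MG132 neurites. In somas it measured 24.15, 26.5 and 14.9 CPM in Ctrl and 20.8, 11.5 and 13.9 CPM in MG132, 2 overlapping ranges. Its log2 fold change was -1.35 ± 0.28 in neurites (edgeR adjusted p = 0.00246), a 2.56-fold fall, and -0.50 ± 0.29 in somas (edgeR adjusted p = 0.217). The difference between fractions, -0.86 (standard error 0.40, edgeR adjusted p = 0.709), did not pass the test. The neurites call was lost without MG132 neurites 1 or 3 or Ctrl neurites 2 or 3, with values between -1.69 and -1.05.

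Markers of other cells moved with the MG132 comparison. Their calls stand beside 5.58% of all genes called lower in somas and 5.44% in neurites. The 7 microglia markers summed to 534 to 666 CPM in Ctrl somas and 139 to 249 CPM in MG132 somas, and to 544 to 1060 CPM in Ctrl neurites and 82.3 to 191 CPM in MG132 neurites, with 3 of 7 called lower in somas and 4 of 7 in neurites. The 7 astrocyte markers summed to 4593 to 5673 CPM in Ctrl somas and 2435 to 3155 CPM in MG132 somas, and to 20770 to 25720 CPM in Ctrl neurites and 9628 to 19690 CPM in MG132 neurites, with 4 of 7 and 3 of 7 called lower. The sums of neuron markers overlapped between Ctrl and MG132 in both fractions, and none of the 8 was called after MG132, with negative log2 fold changes for 8 of 8 in somas and 7 of 8 in neurites. The sums of oligodendrocyte markers, 1404 to 6889 CPM in Ctrl somas and 517 to 6370 CPM in MG132 somas and 4933 to 23100 CPM in Ctrl neurites and 2964 to 16680 CPM in MG132 neurites, overlapped too. Endothelial markers were near 0, at 13.3 CPM or less in sum. The part of these shifts in the changes of the members was not tested.

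The remaining members of known role were not called after MG132. *Usp5* and *Usp13*, which take apart free ubiquitin chains, had log2 fold changes of 0.34 and 0.72 in somas and 0.25 and 0.44 in neurites. The endosomal metalloproteases *Stambp* and *Stambpl1* had 0.23 and 0.17 in somas and 0.67 and 0.32 in neurites. *Usp30*, anchored in the outer mitochondrial membrane, had 0.82 (edgeR adjusted p = 0.0323) and 0.42. *Usp12*, the close relative of *Usp46*, had 0.66 (edgeR adjusted p = 0.0315) and 0.39, both positive where those of *Usp46* were negative.

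Values of *Usp9x* were 240 to 255 CPM in Ctrl somas and 289 to 297 CPM in MG132 somas. Its log2 fold change of 0.63 in neurites (edgeR adjusted p = 0.0104) missed the thresholds of both p and fold. *Atxn3*, the gene mutated in Machado-Joseph disease, had 0.997 (edgeR adjusted p = 0.0168) in somas and 0.65 in neurites. *Cyld*, a brake on NF-κB signalling, had -0.37 and -0.42, *Otub1* 0.44 and -0.26, and *Otud5* 0.17 and -0.25. *Usp18*, which removes the ubiquitin-like ISG15, was at 5.65 CPM or less in every library, with -0.15 (standard error 0.89) in somas, where the sign turned without MG132 somas 1 or Ctrl somas 2, and -1.06 (standard error 0.92) in neurites. *Uchl3* had 0.51 and 0.91, with 4.57% of its sequence windows of 75 bases shared with *Uchl4*. *Usp6nl*, *Usp53* and *Usp54*, which are no ubiquitin proteases or are thought inactive, were not called in any comparison.

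*Usp51* had the lowest values of all tested members in both responses but few reads, at 2.91, 6.14 and 1.85 CPM in Ctrl neurites and 0, 0.271 and 0.355 CPM in MG132 neurites. No MG132 library held more than 6 of its reads, and it was not called (edgeR adjusted p = 0.0153 in neurites and 0.22 in somas). In all, 42 of the 67 tested members were called in none of the 4 comparisons between groups.

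Calls between the fractions made up 2.985% higher and 1.493% lower of the tested members in Ctrl, and 10.45% and 2.985% in MG132. In Ctrl, the neurites exceeded the somas for 2 called members and fell short of them for 1, beside 6.15% and 1.28% of all genes, and in MG132 7 were called higher and 2 lower, beside 6.92% and 2.08%. The median log2 ratio of neurites to somas was -0.13 for the members and -0.039 for all genes in Ctrl, and -0.17 and -0.082 in MG132. These ratios depend on the scaling. On total counts the median of all genes was -0.70 in Ctrl and -0.86 in MG132, that of the members -0.78 and -0.91, and 1 member was called higher and 8 lower in Ctrl, beside 1.26% and 6.60% of all genes, and 0 higher and 16 lower in MG132, beside 0.973% and 14.9%. Ratios are therefore read against the median of all genes. With the block, 5 members were called higher and 2 lower in Ctrl, beside 8.59% and 3.87% of all genes, and 8 and 3 in MG132, beside 9.38% and 5.33%.

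*Usp46* had the highest ratio in Ctrl and *Otud6b* the next among called members. The ratio of *Usp46* was 2.45 on the log2 scale in Ctrl, 5.47-fold (standard error 0.29, edgeR adjusted p = 3.99e-05), and 1.59 in MG132 (standard error 0.29, edgeR adjusted p = 0.00141). Against the median of all genes it was 2.49 with TMM factors and 2.48 on total counts in Ctrl. The MG132 call was lost without MG132 neurites 2. Exonic bases of *Usp46* overlap antisense RNAs by 4.62%. *Otud6b*, an OTU enzyme (Entrez 72201, chromosome 4, 14809505 to 14826413), measured 38.8, 39.99 and 26.0 CPM in Ctrl somas and 136, 108 and 112 CPM in Ctrl neurites. In MG132 it measured 63.8, 44.96 and 56.1 CPM in somas and 153, 137 and 148 CPM in neurites. The fractions did not overlap in either condition, with log2 ratios of 1.76 (standard error 0.20, edgeR adjusted p = 2.42e-05) and 1.40 (standard error 0.20, edgeR adjusted p = 0.000169). Its response to MG132 was not called in either fraction.

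In MG132 but not in Ctrl, 5 members were called higher in neurites: *Uchl5* (1.62 in MG132 and 0.90 in Ctrl), *Usp1* (1.10 and 0.81), *Usp47* (1.04 and 0.23), *Usp8* (0.86 and 0.41) and *Usp34* (0.82 and 0.38). All 5 were also called higher in neurites after MG132. The difference between conditions is the same quantity as the difference of the responses above and was called for none of them. On total counts the Ctrl ratios of *Usp47*, *Usp8* and *Usp34* turned negative (-0.44, -0.23 and -0.30), while against the median of all genes they stayed positive (0.26, 0.47 and 0.40). *Usp8* and *Usp34* lost the MG132 call in 6 of 6 and 5 of 6 left-out fits. With the block, *Uchl5* (0.93, edgeR adjusted p = 0.00169) and *Usp1* (0.81, edgeR adjusted p = 0.00544) were called higher in neurites in Ctrl as well, *Otud7b* (0.82, edgeR adjusted p = 0.00174) was added there, and *Usp16* (0.81, edgeR adjusted p = 0.0015) was added in MG132.

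Members lower in neurites were *Usp2* in Ctrl (-0.94, edgeR adjusted p = 0.00309) and *Usp22* (-0.81, edgeR adjusted p = 0.0035) and *Usp31* (-0.78, edgeR adjusted p = 0.00793) in MG132. *Usp22* measured 135, 106 and 117 CPM in Ctrl somas and 82.2, 79.5 and 71.7 CPM in Ctrl neurites, and 177, 127 and 164 CPM in MG132 somas and 91.6, 82.96 and 92.4 CPM in MG132 neurites, without overlap in either condition. The ratio of *Usp2* in MG132 was -0.70, and those of *Usp22* and *Usp31* in Ctrl were -0.62 and -0.70, each with no call. Leaving out 1 library ended the call of *Usp2* in Ctrl (either fraction's library 1 or 3), and of *Usp22* and *Usp31* in MG132 (any but MG132 somas 2). With the block, *Usp37* in Ctrl (-1.09, edgeR adjusted p = 0.00238) and *Otud1* in MG132 (-1.25, edgeR adjusted p = 0.00659) were added. Among the lowest ratios without a call were those of *Usp29* (-1.85 in Ctrl and -1.29 in MG132) and *Otud1* (-1.11 and -1.15), and of *Usp43* in Ctrl (-1.11) and *Usp49* in MG132 (-0.97).

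**Figure D3:**
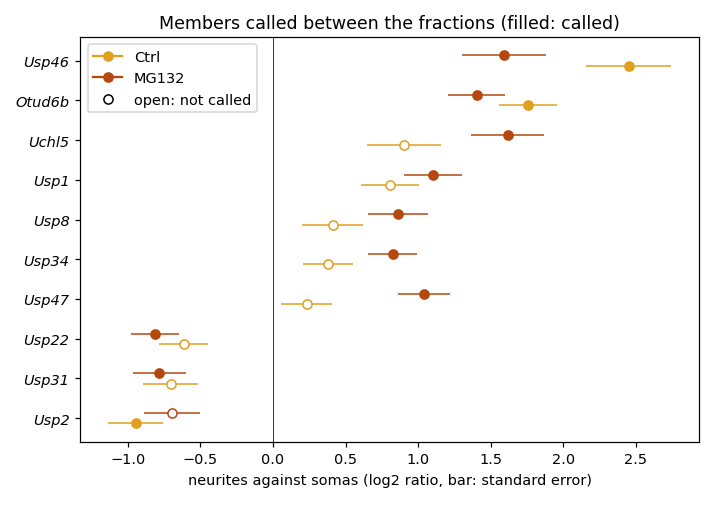
Log2 ratio of neurites to somas in Ctrl (yellow) and MG132 (dark orange) for the 10 members called in either condition, with standard errors as bars and filled points where called. *Usp46* (2.45 in Ctrl, 1.59 in MG132) and *Otud6b* are called in both conditions, and *Usp22*, *Usp31* and *Usp2* lie below 0.

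The astrocyte markers differed between the fractions as well. Their sum was 4593 to 5673 CPM in Ctrl somas and 20770 to 25720 CPM in Ctrl neurites. Of the 7, 3 were called higher and 1 lower in Ctrl neurites, beside 6.15% and 1.28% of all genes. Oligodendrocyte markers summed to 1404 to 6889 CPM in Ctrl somas and 4933 to 23100 CPM in Ctrl neurites, which overlap, and none was called. The sums of neuron markers overlapped between Ctrl somas (1124 to 1636 CPM) and Ctrl neurites (949 to 1758 CPM), but *Map2* was a large part of them, at 364 ± 95.2 CPM in Ctrl somas and 703 ± 190.1 CPM in Ctrl neurites (mean ± SD, n = 3). The other 7 neuron markers had negative log2 ratios, and *Grin1* was called lower (-1.52, edgeR adjusted p = 0.00253). The part of other cells in the ratios of *Usp46*, *Otud6b* and the other members was not tested.

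No member was called in the test of whether the response differed between fractions, where 0% and 0% of all genes were called higher and lower. With the block no member was called, beside 0.0987% and 0.0493% of all genes. DESeq2 gave an adjusted p to 42 of the 67 members and called none of them, beside 0.390% higher and 0.111% lower of the 5385 genes with an adjusted p. At an unadjusted p under 0.05, edgeR gave 5 of the 67 members, 2 with the larger value in neurites (*Usp47* and *Usp15*) and 3 with the larger value in somas (*Usp49*, *Otub1* and *Usp46*). Among all 14185 genes tested, 1000 passed this level, 474 of them with the larger value in neurites. The share of members is close to that of all genes. *Usp49* had a response of 1.25 in somas and -0.28 in neurites, a difference of -1.52 (standard error 0.50, unadjusted p = 0.00829, adjusted p = 0.494), but 51.2% of its exonic bases are shared with other genes on the same strand. The highest differences by value were those of *Usp43* (1.95, standard error 1.17) and *Uchl4* (1.29, standard error 0.93), at 5.43 and 7.52 CPM or less in every library, and among the lowest were those of *Usp51* (-2.14) and *Usp18* (-0.91), each with an edgeR adjusted p of 0.802 or more.

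Per kb of exons, levels of different members may be compared, but only roughly. The length used is the union of all annotated exons of a gene, which can exceed that of the mRNA present and lower its rank. *Uchl1* led in Ctrl somas with 34.3 ± 4.91 CPM per kb (SD, n = 3). It was followed by *Usp22* (24.4 ± 3.01), *Usp9x* (16.5 ± 0.518), *Usp8* (15.9 ± 0.80) and *Usp7* (12.2 ± 1.03). The values of *Usp9x* and *Usp8* differed by less than the SD of *Usp8* and by more than that of *Usp9x*. In Ctrl neurites *Otud6b* (35.0 ± 4.49) came next to *Uchl1* (37.7 ± 5.72), closer than the SD of either. In MG132 neurites *Uchl1* (53.1 ± 8.40), *Usp8* (47.0 ± 4.45) and *Otud6b* (43.05 ± 2.36) formed a group at the top, with *Usp7* (35.3 ± 2.02) after them. *Usp46* was 38th of 77 in Ctrl somas and 6th in Ctrl neurites, and 59th in MG132 somas and 30th in MG132 neurites. *Usp2* went from 7th in Ctrl somas to 43rd in MG132 neurites.

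**Figure D4:**
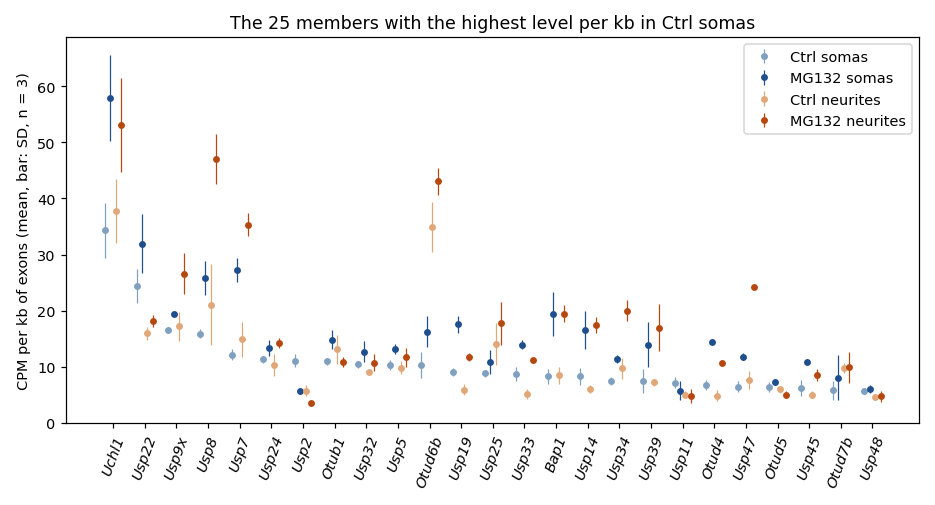
CPM per kb of exons (vertical axis, from 0; mean with SD, n = 3) in the 4 groups for the 25 members with the highest level in Ctrl somas, in that order. *Uchl1* is highest in each group, *Usp8*, *Usp7* and *Usp47* are higher in MG132 neurites than in the other groups, and *Otud6b* is high in both neurites groups.

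Other genes of the pathway, listed by function, gave calls in the same comparisons. Of 20 further genes outside the name rule, 4 were called higher in somas, and in neurites 4 higher and 2 lower. They were listed as deubiquitinating enzymes, but not all are known to cut ubiquitin, as with *Uspl1* below. Of all genes, 9.00% were called higher and 5.58% lower in somas, and 9.25% and 5.44% in neurites. *Psmd14*, the metalloprotease in the lid of the proteasome, rose in both, from 48.5, 53.3 and 49.9 CPM to 101, 139 and 124 CPM in somas (log2 1.26) and from 57.1, 68.9 and 67.9 CPM to 218, 243.5 and 255 CPM in neurites (log2 1.88). *Zranb1*, an OTU enzyme, rose by 1.84 and 1.61, and *Uspl1*, known as a SUMO protease, by 1.85 and 1.72. *Mysm1*, a histone H2A protease, was called in somas (0.99), and *Cops5*, the catalytic subunit of the COP9 signalosome, in neurites (0.83). *Mpnd* (-1.28) and *Mindy2* (-1.07) were called lower in neurites.

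Among 17 binding partners, 4 were called higher in somas and 6 in neurites, and none lower. The shares of all genes were 9.00% higher and 5.58% lower in somas, and 9.25% and 5.44% in neurites. *Adrm1*, the proteasomal receptor of *Uchl5*, rose from 2.98 to 3.73 CPM to 7.33 to 13.9 CPM in somas (log2 1.77). In neurites it rose from 1.34 to 3.58 CPM to 8.43 to 12.2 CPM (log2 1.90). It had few reads in Ctrl, 27 to 54 in a somas library and 8 to 32 in a neurites library. *Nfrkb*, the partner of *Uchl5* in the INO80 complex, rose by 1.21 and 1.26. *Stam* and *Stam2*, which bring *Usp8* and *Stambp* to endosomes, rose by 1.39 and 1.15 in somas and by 1.91 and 1.04 in neurites. *Gmps*, the partner of *Usp7*, and *Abraxas2* were called in neurites. *Wdr48* and *Wdr20*, the partners of *Usp46* and *Usp12*, were not called.

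Of 6 ubiquitin and E1 genes, *Ubb* was called higher in somas (log2 1.61), and none in neurites, where edgeR gave 0 of 6 at an unadjusted p under 0.05 in the higher direction. Among all 14185 genes tested, 9.00% were called higher in somas and 9.25% in neurites. At that unadjusted level 2706 were higher in neurites. Reads of ubiquitin genes are uncertain because their repeats are shared. Of 13 proteases of ubiquitin-like proteins, 4 were called higher in somas and 3 in neurites, with the SUMO proteases *Senp2* (1.10 and 1.22), *Senp5* (1.53 and 1.62) and *Senp6* (0.93 and 1.25) in both and *Senp3* in somas.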

How the data were processed

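The authors trimmed reads with Trimmomatic 0.38.0, aligned them to mm10 with STAR, counted them per gene with featureCounts 2.0.1 at default parameters and deposited whole-number read counts for 1 library per file, unnormalized and unfiltered. PolyA RNA was captured. Default counting ignores strand, so reads of overlapping genes cannot be told apart and may be left uncounted. No count column was left out (0 not used).

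Symbols, coordinates and promoters came from RefSeq (GRCm38). Exon lengths, exonic overlaps and shared sequence windows came from GENCODE, not from the annotation used for counting. The tests used edgeR 4.0.16 in R 4.3.3 (filterByExpr by group, TMM factors, 1 quasi-likelihood fit of 4 group means over 12 libraries, Benjamini-Hochberg adjustment over 14185 genes) and, as an alternative, DESeq2 1.42.0. The script was tested on simulated counts. Standard errors are the absolute log2 fold change over the square root of F. Calls needed an adjusted p under 0.01 and over 1.7-fold, with no fold for the difference of responses. The study's legend states over 1.7-fold and a p under 0.01, without saying that p was adjusted. The median standard error over genes was 0.36 in both fractions.

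The labels number replicates 1 to 3 in each group. Same-numbered libraries of the groups compared deviated together (correlations 0.165 to 0.248, others -0.181 to -0.0203), so a fit with this number as a block was run. Dates in the deposited file names are shared by same-numbered libraries except MG132 neurites 3, whose pairing is therefore less sure. No 2 of the 66 pairs of libraries were identical.

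Named were called members, the 3 highest and 3 lowest per comparison and members of known role. Members (by a rule on names), lists and this choice of named genes were chosen with earlier results of these data known.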

Additional observations from a re-analysis of the deposited data

How the results depend on the processing

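Direction held for all named values and settings except those given here. Counts of members called are given as higher then lower. On total counts they were 3 and 0 in somas, 6 and 0 in neurites, 1 and 8 for neurites against somas in Ctrl and 0 and 16 in MG132. The shares of all genes were also lower there for both responses (3.47% and 2.94%, 3.40% and 3.79%). Between the fractions they were 1.26% and 6.60% in Ctrl and 0.973% and 14.9% in MG132. There *Usp16*, *Usp36* and *Usp38* kept the somas call, and these with *Usp3*, *Usp14* and *Usp47* the neurites call. At a log2 fold change above 1.7 the counts were 1 and 0, 2 and 0, 2 and 0, and 0 and 0, beside 2.11% and 2.43%, 2.44% and 2.19%, 2.12% and 0.338%, and 2.04% and 0.508% of all genes. At an unadjusted p under 0.01 the difference of responses gave 1 and 1, beside 132 and 144 of all 14185 genes tested. At an adjusted p under 0.05 without a fold they were 30 and 1, 23 and 3, 5 and 7, and 9 and 6, beside 15.5% and 11.9%, 14.7% and 12.3%, 10.2% and 4.65%, and 11.4% and 6.35%. Members called lower in neurites after MG132 were 2 with DESeq2 size factors, 3 with DESeq2 and 2 with at least 10 counts in every library. Over all genes, 846, 1345 and 917 were called lower with these, against 772 in the main fit. Members lower in Ctrl neurites than somas were 3 with DESeq2 size factors, 3 with DESeq2, 3 with no count filter, 3 with at least 10 counts and 0 with only the libraries compared, and in MG132 0 with no count filter and 0 with only the libraries compared. Over all genes the Ctrl counts were 217, 511, 450, 270 and 123, against 181 in the main fit. In MG132 they were 414 and 155, against 295. The replicate block, paired by number, gave 19 and 1 in somas, 5 and 2 for the Ctrl fractions and 8 and 3 for MG132, and changed no other call than those named above.

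Leaving out 1 library gave 10 to 12 higher and 0 to 1 lower in somas, 17 to 21 and 0 to 1 in neurites, 2 to 2 and 0 to 3 for the Ctrl fractions, 5 to 5 and 0 to 2 for MG132, and 0 to 0 both ways for the difference. Over all genes, these fits gave 849 to 1077 higher and 429 to 582 lower in somas, and 996 to 1451 and 409 to 588 in neurites. They gave 578 to 806 and 82 to 172 for the Ctrl fractions, and 653 to 875 and 76 to 192 for MG132. The sign turned for *Stambpl1* in somas without MG132 somas 1 (-0.002, range of the left-out fits -0.002 to 0.30), for *Usp18* in somas without MG132 somas 1 (0.24) or Ctrl somas 2 (0.75, range -0.56 to 0.75), and for the Ctrl ratio of *Usp47* without Ctrl neurites 3 (-0.013). On total counts the Ctrl ratios of *Usp34* (-0.30), *Usp47* (-0.44) and *Usp8* (-0.23) turned. The cause was not tested. With 3 libraries a group and a median standard error of 0.36, changes near the 1.7-fold threshold could not be settled.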
